A study of Mus musculus with 12 samples.

Results

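The HOX cluster genes are 39 genes of the 34763 gene names on a mouse Agilent array, taken as every gene whose array name is Hox followed by the letter of a cluster (a to d) and a number. They were read by 45 of 55681 probes other than controls. Where a gene had several probes, the one brightest on average across the 12 arrays stood for it, and no measured difference between groups entered the choice. Cluster A holds 11 of the genes, cluster B 10, cluster C 9 and cluster D 9.

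HOX genes encode homeodomain transcription factors that give cells of the embryo their position along the body axis. They lie side by side in 4 clusters, in an order that follows the axis: genes of low number act toward the head and genes of high number toward the tail and the ends of the limbs. Adult skin keeps part of this code, in dermal fibroblasts and in the epidermis and its follicles, and Hoxc13 is needed for a normal hair shaft. Below, numbers 1 to 4 are called anterior, 5 to 8 central and 9 to 13 posterior, which gave 12, 11 and 16 genes.

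The series asked what ageing and loss of Col17a1 do to hair follicle stem cells (HFSC). Each of its 12 groups was measured on 1 array, so replication came only from pairs of arrays. HFSC, sorted per the labels' protocols as CD34 high, ITGA6 high and without SCA1, came from young mice (8 weeks), aged mice (22 months or older), control mice (12 weeks, wild type, given tamoxifen) and cKO mice (12 weeks, given tamoxifen, labelled Col17a1cKO with the k14 promoter). Each of these 4 kinds of mouse gave an unplucked sample and a sample plucked 3 days earlier. Total epidermis and interfollicular epidermis (IFE, the epidermis between follicles, sorted as high for ITGA6 and SCA1) came from untreated young and aged mice only. Tamoxifen was 2 mg for 5 days, injected intraperitoneally. The strain label is C57BL/6 for young, aged and control samples, and the cKO samples carry no strain label. The labels do not say how many animals made a sample, nor whether 2 samples shared animals, so scatter between samples may be technical. The main p-values rest on how far arrays depart from a fit that adds population and age, or mouse type and plucking. With 1 array per group, that departure mixes noise with any real difference that itself changes with age or mouse type.

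Levels are log2 processed intensities minus the 75th percentile of the array, so 0 is the 75th percentile and a step of 1 is a 2-fold change. A level is compared between arrays, never between genes, since probes differ in brightness. Well above background is the scanner software's own flag. Between 49.71% (cKO HFSC) and 64.97% (young total epidermis) of the spots of an array carried it. Young and aged arrays were on slide 1, control and cKO arrays on slide 2. On slide 1 each population had its own column and each age its own row, so population cannot be told apart from column, nor age from row. Control mice and young mice never shared a slide, so those 2 cannot be told apart either. The unplucked control and cKO arrays stood lowest in median correlation with the other 11 arrays over genes (0.903 and 0.907, against 0.918 to 0.936), and values without them stand beside the plucking and cKO results. Of 11 bulge genes, 8 were higher in HFSC than in IFE, where 2.64% of all genes were (limma, adjusted p under 0.05). Of 8 IFE genes, 3 were lower, where 2.1% of all genes were. These lists include the sort markers, so part of the counts follows from the sort: Cd34 (10.55) and Ly6a, the SCA1 gene (-4.76), passed and Itga6 (-1.25) did not. Tcf7l1 (3.79), Krt15 (0.25), Krt10 (-1.06), Krt14 (-0.5), Krtdap (-0.39), Krt5 (-0.08) and Sbsn (0.91) did not pass either. Col17a1 stood at 7.31 and 6.22 in unplucked and plucked control HFSC and at 7.0 and 5.79 in cKO HFSC, at a probe whose place relative to the deleted part is not given in the sources used here.

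The promoters of 3 cluster D genes are shown because these genes were together undetected on both unplucked slide 2 arrays and detected in unplucked young and aged HFSC, as described below. They are the 250 bases before the start in RefSeq (GRCm38.p6, plus strand, 5′ to 3′). They lie at chr2:74721728-74721977 for Hoxd4, chr2:74704365-74704614 for Hoxd8 and chr2:74697513-74697762 for Hoxd9. Capitals mark matches on either strand to TATAAA (the TATA box), CCAAT (the CCAAT box), GGGCGG (a GC box) or TGATTNAT (a joint HOX and PBX motif, N being any base), with overlapping matches counted singly.
Hoxd4: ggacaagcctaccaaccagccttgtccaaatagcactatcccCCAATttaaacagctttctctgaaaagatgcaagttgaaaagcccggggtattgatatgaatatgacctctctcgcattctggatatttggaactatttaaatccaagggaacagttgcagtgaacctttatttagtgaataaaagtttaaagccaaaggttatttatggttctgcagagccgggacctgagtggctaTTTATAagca
Hoxd8: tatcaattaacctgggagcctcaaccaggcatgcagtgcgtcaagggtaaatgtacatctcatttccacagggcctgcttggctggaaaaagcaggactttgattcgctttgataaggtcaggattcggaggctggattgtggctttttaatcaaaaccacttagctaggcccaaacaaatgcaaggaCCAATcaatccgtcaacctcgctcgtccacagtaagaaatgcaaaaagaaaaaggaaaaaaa
Hoxd9: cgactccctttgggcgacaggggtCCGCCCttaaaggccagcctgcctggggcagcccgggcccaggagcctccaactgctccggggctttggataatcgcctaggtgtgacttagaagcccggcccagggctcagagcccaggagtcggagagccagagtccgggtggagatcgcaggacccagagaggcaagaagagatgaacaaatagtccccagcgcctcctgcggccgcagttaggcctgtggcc
In these windows Hoxd4 had 1 TATAAA and 1 CCAAT, Hoxd8 had 1 CCAAT, and Hoxd9 had 1 GGGCGG. Among the 32851 mouse promoter windows of the same length, TATAAA was in 12.4%, CCAAT in 33.8%, GGGCGG in 32.7% and TGATTNAT in 2.82%. RefSeq's table gave 24 windows for 22 HOX genes, and among them the shares were 16.7%, 58.3%, 41.7% and 8.33%. The windows of the cluster D trio differed in base composition, with 40.4% G and C for Hoxd4, 44.4% for Hoxd8 and 65.2% for Hoxd9, and with 3, 6 and 13 CG pairs. The median HOX window had 58.6% G and C and 12.5 CG pairs, against 52.4% and 6.0 over all windows. A match is a description of the letters only.

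Of the 39 genes, 32 were well above background on at least 1 array and 17 on all 12. Cluster B was the most evenly detected, with 8 of 10 genes on all 12 arrays (Hoxb2 to Hoxb9). Cluster A had 5 of 11 (Hoxa2, Hoxa3, Hoxa5, Hoxa7, Hoxa13), cluster C 4 of 9 (Hoxc4, Hoxc5, Hoxc6, Hoxc8) and cluster D 0 of 9. The 7 genes detected on no array were Hoxa10, Hoxa11, Hoxb1, Hoxb13, Hoxc11, Hoxc12 and Hoxd1. They include the most posterior gene of cluster B and the posterior pairs beside Hoxc13 and Hoxa13, while Hoxa13 and Hoxc13 themselves were detected. By position, 9 of 11 central genes were on all 12 arrays, against 6 of 12 anterior and 2 of 16 posterior genes. In mm9 coordinates the probes span chr11:96057854-96228510 for cluster B, chr15:102759058-102867272 for C and chr2:74509248-74603059 for D.

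Cluster D was the cluster whose detection depended most on the sample: none of its genes was detected on both IFE arrays and 6 of 9 on neither. Only Hoxd12 was detected on all 8 HFSC arrays. Hoxd10 was detected only on young HFSC (-3.15) and aged plucked HFSC (-3.60), Hoxd11 only on aged plucked (-3.27) and control plucked HFSC (-4.31), and Hoxd3 only on aged plucked HFSC (-1.88). In cluster C, Hoxc10 was detected on control HFSC alone (-3.65). The number of HOX genes detected per array ran from 20 (young IFE and unplucked cKO HFSC) to 29 (aged plucked HFSC). Those 2 arrays also had the lowest shares of all spots above background, 53.27% and 49.71%, whose part in the count was not tested.

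**Figure D1:**
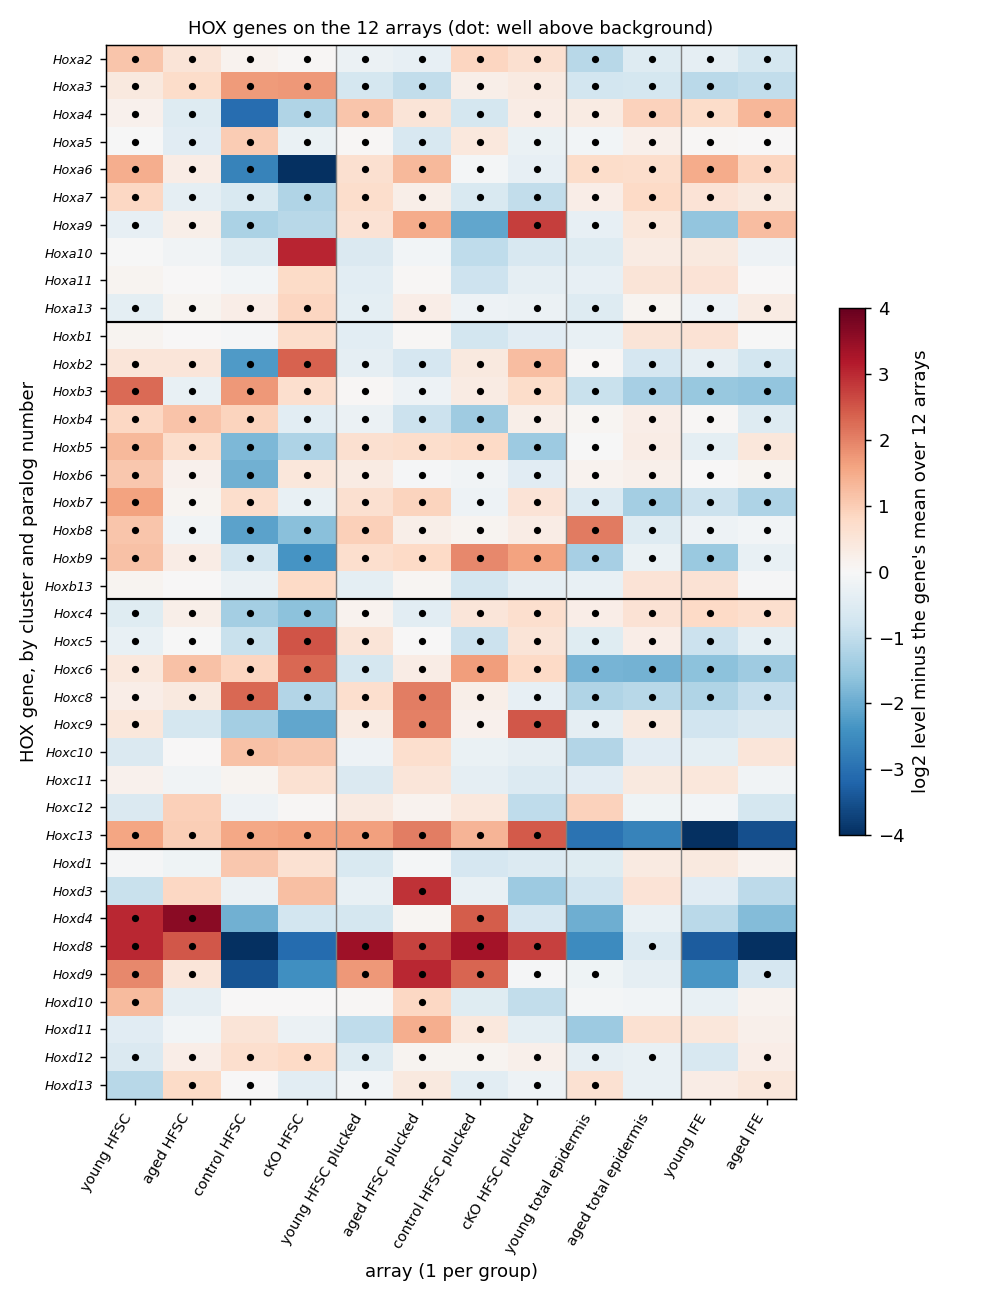
The level of 38 HOX genes (rows, by cluster and number) on each of the 12 arrays (columns) as the log2 difference from the gene's own mean over 12 arrays, with a dot where the gene was well above background and colours that stop at 4 in either direction. Hoxc13 is high on all 8 HFSC arrays and undetected on the 4 epidermal arrays, and no row of cluster D is dotted on all 12 arrays.

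HFSC were set against IFE with limma, fitting population and age to the 6 slide 1 arrays without plucking (2 residual degrees of freedom, n = 2 pairs). Genes entered the test if at least 2 of the 6 arrays detected them, and passed at a Benjamini-Hochberg adjusted p under 0.05 over all 23961 genes tested. Of the 28 HOX genes tested, 4 were higher in HFSC: Hoxc13, Hoxd8, Hoxd4 and Hoxc6. That is 14.3%, where 2.64% of all genes tested were higher. Of the 6 arrays, Hoxc13 and Hoxd4 were detected on the 2 HFSC arrays alone, and Hoxd8 on these and aged total epidermis. They entered the test through arrays where they were high and could hardly come out lower, so their direction is no result of the test. None of the 28 HOX genes was lower, where 2.10% of all genes were. An unadjusted p under 0.05 was found for 14 HOX genes, 13 of them higher, and for 20.1% of all genes in either direction. The median difference over the 28 genes was 0.81 on the log2 scale, against -0.09 over all genes. The 4 genes belong to the clusters that IFE lacked most often, 2 each to C and D. Hoxc13, Hoxd4 and Hoxd8 are themselves among the genes undetected in IFE, so these 2 facts are not independent. By cluster, the fitted difference was above 0 for 3 of 9 genes of cluster A, 8 of 8 of B, 5 of 6 of C and 4 of 5 of D. Over all genes tested 44.3% were above 0 and 55.7% below. At 1 or more on the log2 scale stood 13 genes higher in HFSC and 1 lower, Hoxa4, where 10.4% of all genes were that much higher and 11.7% lower. In single pairs at the 2-fold line, with the brighter array well above background, 17 of 28 HOX genes were higher and 2 lower in the young pair (14.2% and 14% of all genes). In the aged pair 12 of 27 were higher and 2 lower (15.3% and 15.0%). Both pairs shared 10 of the genes that were higher.

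Genes listed as markers of other cells differed between the same arrays, and which cells made their transcripts was not measured. Of 7 fibroblast genes, which matter here because dermal fibroblasts also use HOX genes, 2 were higher in HFSC than in IFE (Col1a1 and Col1a2). Their summed log2 level was 2.12 to 3.21 in unplucked and 1.08 to 1.34 in plucked HFSC, and -1.03 to -0.66 in total epidermis and IFE. Lum and Pdgfra were not well above background on any array, and Dcn only on 3 plucked HFSC arrays. Of 7 dermal papilla genes, Wif1 was higher and Rspo3 lower in HFSC. Col1a1 and Wif1 entered the test through HFSC arrays alone, and Rspo3 through epidermal arrays alone, which set their directions. Of 7 melanocyte genes, Mitf was higher and Pmel lower. No gene of the T cell, Langerhans and myeloid, endothelial, smooth muscle or Merkel lists passed. The part of these cells in the HOX differences was not tested. In sorted bulk RNA, fewer cells of a type and less RNA per cell cannot be told apart.

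**Figure D2:**
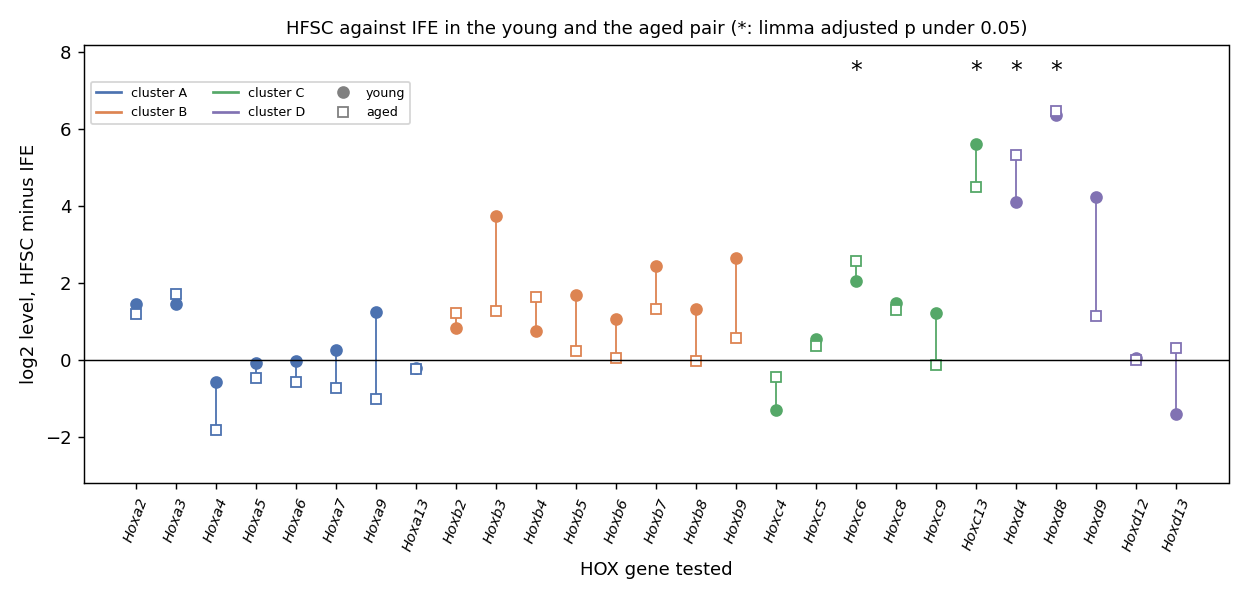
Log2 level in HFSC minus that in IFE (y axis) for 27 of the 28 HOX genes tested (x axis), in the young pair (filled circles) and the aged pair (open squares), coloured by cluster, with a star where limma's adjusted p was under 0.05. The stars are over Hoxc6, Hoxc13, Hoxd4 and Hoxd8, and all 8 genes of cluster B have a fitted difference above 0.

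In cluster C, Hoxc13, the regulator of hair keratin genes in the forming shaft, separated the sorted stem cells from the epidermis on every array. In unplucked HFSC it stood at 0.38 in young, -0.20 in aged, 0.35 in control and 0.44 in cKO mice. After plucking the levels were 0.47, 0.87, 0.17 and 1.26 in the same order. It was not well above background in total epidermis (-4.15 young, -3.86 aged) or in IFE (-5.25 and -4.69). The lowest of 8 HFSC arrays was thus far above the highest of 4 epidermal arrays. HFSC exceeded IFE by 5.06 ± 0.38 (SE, n = 2 pairs, limma, adjusted p = 0.0117). Since IFE gave only a bound, this is a ratio of at least 14.9-fold, the HFSC mean over a floor set on each IFE array at the higher of its dimmest detected probe and the gene's own signal. The call held in the 10 alternatives that could test the gene (adjusted p 0.000658 to 0.0407). Detection on only the 2 HFSC arrays kept Hoxc13 out of the test without either of them and under a filter that asked for more arrays.

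Hoxc6, a thoracic gene of the body axis, was detected everywhere and was higher in HFSC. Its levels in unplucked HFSC were 2.47 in young, 3.20 in aged, 2.89 in control and 4.32 in cKO mice. In plucked HFSC they were 1.32, 2.33, 3.72 and 2.84. Total epidermis stood at 0.18 and 0.15, and IFE at 0.40 and 0.60, in young and aged mice. Again no HFSC array overlapped an epidermal one, although plucked young HFSC came closest. The difference from IFE was 2.33 ± 0.32 (5.03-fold, adjusted p = 0.033). It lost the call without young total epidermis (adjusted p = 0.064), young IFE (0.154), aged HFSC (0.0659), aged total epidermis (0.0697) or aged IFE (0.177), at 2.01 to 2.65. It also lost it with no filter on dim genes (0.067) and in 1 fit over 12 arrays (0.0841).

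Hoxc8, which marks trunk identity and has been studied in dermal papillae, did not pass. Its unplucked HFSC levels were -1.10 in young, -0.98 in aged, 0.92 in control and -2.54 in cKO mice. The plucked levels were -0.71, 0.67, -1.13 and -1.69. In young and aged total epidermis it was at -2.56 and -2.48, and in IFE at -2.58 and -2.28. The unplucked cKO array lay among the epidermal ones, and the other 7 HFSC arrays above them. The difference between HFSC and IFE was 1.39 ± 0.27 (adjusted p = 0.0673). Hoxc4, the anterior gene of the cluster, ran the other way at -0.86 ± 0.33 (adjusted p = 0.25): all 8 HFSC arrays, at 1.36 to 3.66, lay below both IFE arrays, at 3.80 and 3.67. Hoxc5 and Hoxc9 differed by 0.45 and 0.56, and neither passed.

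In cluster D, Hoxd8 and Hoxd4 were higher in HFSC than in IFE, where neither was detected. Hoxd8, a gene of the trunk axis, stood at 1.11 and 0.57 in young and aged unplucked HFSC but was not well above background in control (-6.09) or cKO (-4.98) unplucked HFSC. On all 4 plucked HFSC arrays it was detected, at 1.49, 0.80, 1.41 and 0.83 in young, aged, control and cKO mice. In total epidermis it was at -4.43 (not detected) in young and -2.47 in aged mice, and in IFE undetected at -5.25 and -5.91. So 6 of 8 HFSC arrays were high, and the 2 unplucked arrays of slide 2 lay at the level of IFE. Within the 6 arrays of slide 1, HFSC exceeded IFE by 6.43 ± 0.73 (adjusted p = 0.0225), a ratio of at least 25.2-fold. Without young HFSC the adjusted p was 0.0711 (5.83) and without aged IFE 0.0606 (5.74). In 1 fit over all 12 arrays, which takes in the slide 2 arrays, the difference was 4.84 with adjusted p = 0.227.

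Hoxd4, a hindbrain and neck gene, was detected on only 3 arrays: young HFSC (-1.16), aged HFSC (-0.58) and control plucked HFSC (-1.75). The other HFSC arrays read -6.09 (control), -4.92 (cKO), and after plucking -4.87 (young), -4.11 (aged) and -4.86 (cKO). Total epidermis was at -6.14 and -4.46 and IFE at -5.25 and -5.92. HFSC against IFE gave 4.72 ± 0.60 (adjusted p = 0.0289), a ratio of at least 7.67-fold. The call was lost without aged IFE (3.82, adjusted p = 0.065) and in 1 fit over 12 arrays (3.27, adjusted p = 0.438), and without either HFSC array the gene was not tested. Hoxd9, beside Hoxd8, followed the same arrays without passing (2.70 ± 0.77, adjusted p = 0.151). It was 1.61 without young HFSC and 1.47 without young IFE, and 0.84 with normexp background. In unplucked HFSC it was at -0.88 in young and -2.32 in aged mice and undetected in control (-6.27) and cKO (-5.25) mice. In plucked HFSC it was at -1.08, 0.21, -0.49 and -2.84 in young, aged, control and cKO mice. Total epidermis had it at -2.98 in young and -3.15 (not detected) in aged mice, and IFE at -5.12 (not detected) and -3.48. The HFSC arrays of slide 1 lay above both IFE arrays, and the aged one by 1.16 only. The digit genes Hoxd12 and Hoxd13 differed by 0.03 and -0.54 and did not pass.

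**Figure D3:**
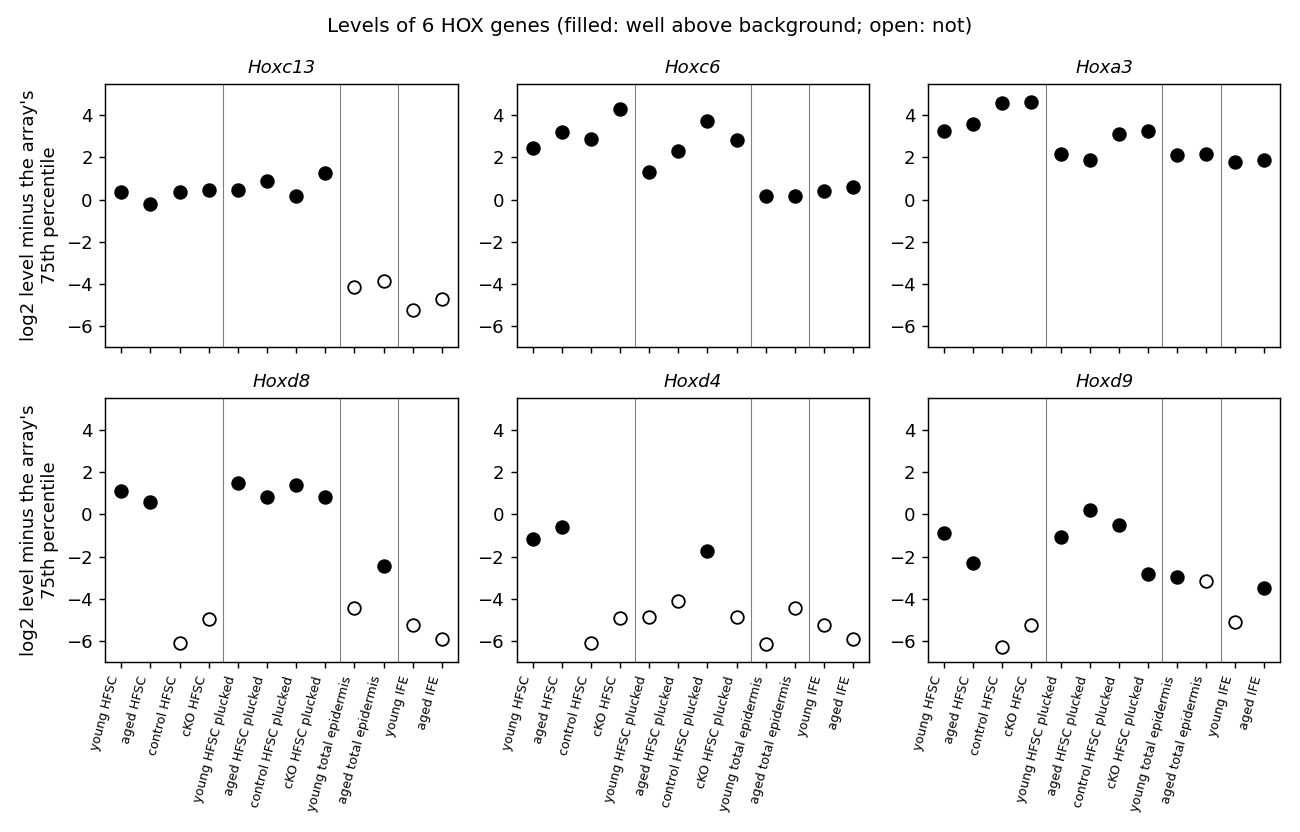
Log2 level minus the array's 75th percentile (y axis) of 6 HOX genes on each of the 12 arrays (x axis), 1 point per array, filled where the gene was well above background. Hoxc13 and Hoxc6 are higher on all 8 HFSC arrays than on any of the 4 epidermal arrays, while Hoxd8 and Hoxd9 are undetected in unplucked control and cKO HFSC.

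Cluster B was detected from Hoxb2 to Hoxb9 on every array, and its 8 tested genes had fitted differences of 0.56 to 2.51 in favour of HFSC, with none passing. Hoxb3, a hindbrain and pharyngeal gene, had the largest of them (2.51 ± 0.68, adjusted p = 0.135). Without aged HFSC it was 3.67 and passed (adjusted p = 0.0333), and without young HFSC it was 1.36 (0.135). It stood at 2.61, 0.04, 2.10 and 1.03 in unplucked HFSC of young, aged, control and cKO mice. After plucking it was at 0.39, 0.15, 0.69 and 1.08. Total epidermis had -0.53 and -0.97 and IFE -1.15 and -1.23, below every HFSC array. Its second probe, whose array annotation also lists an accession of the paralog Hoxd3, gave 1.24 and followed the first over the 12 arrays (r = 0.87). Hoxb7 did the same over arrays: 2.54, 1.05, 1.65 and 0.64 in unplucked HFSC, and 1.57, 1.84, 0.74 and 1.49 in plucked HFSC, in that order of mice. In total epidermis it was at 0.40 and -0.42 and in IFE at 0.09 and -0.28, so that the groups did not overlap. The difference from IFE was 1.89 ± 0.37 (adjusted p = 0.0695), and it passed with normexp background (0.0442).

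The posterior Hoxb9, which patterns the ribs with its paralogs, was at 1.92, 1.03, -0.01 and -1.62 in unplucked HFSC of young, aged, control and cKO mice. Plucked HFSC had 1.40, 1.54, 2.67 and 2.36. Total epidermis (-0.59 and 0.46) and IFE (-0.73 and 0.45) lay below 6 HFSC arrays, with unplucked control HFSC among them and unplucked cKO HFSC lower still. HFSC against IFE gave 1.61 ± 0.60 (adjusted p = 0.238). Without aged HFSC it was 2.62 and passed (adjusted p = 0.0456), without young HFSC it was 0.61 and without young IFE 1.06, and over 12 arrays it was 0.78. For Hoxb4, known from blood stem cells, unplucked HFSC read 0.97, 1.28, 1.03 and -0.27, and plucked HFSC -0.10, -0.72, -1.28 and 0.38. With total epidermis at 0.24 and 0.42 and IFE at 0.20 and -0.38, the groups overlapped (1.21 ± 0.34, adjusted p = 0.15, and 0.80 without aged IFE). Hoxb2, a hindbrain gene, read 0.16, 0.16, -2.59 and 2.02 in unplucked and -0.68, -1.01, 0.06 and 0.89 in plucked HFSC. Its epidermal arrays, at -0.28 and -1.0 in total epidermis and -0.68 and -1.06 in IFE, lay inside that range (1.03 ± 0.31, adjusted p = 0.168). Unplucked control and cKO HFSC were the lowest and the highest of all 12 arrays for this gene.

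Cluster A had the smallest median difference (-0.23, against 1.12 in B, 0.97 in C and 2.7 in D), and none of its genes passed. Fitted differences were below 0 for 6 of its 9 tested genes, near the 55.7% of all genes. Hoxa3, needed for thymus and parathyroid, was the nearest to passing (1.59 ± 0.28, adjusted p = 0.0527). Its unplucked HFSC levels were 3.25, 3.61, 4.57 and 4.61 in young, aged, control and cKO mice and the plucked ones 2.18, 1.87, 3.09 and 3.24. Total epidermis was at 2.14 and 2.18 and IFE at 1.79 and 1.89. The unplucked HFSC arrays lay above all epidermal ones, and the plucked young and aged arrays among them. It passed with another background correction (normexp, adjusted p = 0.0149), with a filter that asked for detection on 3 of 6 arrays (0.0453) and in 1 fit over 12 arrays (0.0192). The Hoxa3 probe (mm9 chr6:52119087-52119146, minus strand) shares 40 of its 60 bases with a plus-strand probe for the noncoding gene 5730446D14Rik, a synonym of Hoxaas2 in RefSeq. That probe gave 1.54 ± 0.35 (adjusted p = 0.0938), and signal from a gene and its antisense partner cannot be told apart here. A second Hoxa3 probe, detected on 4 of 12 arrays, gave 0.05.

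Hoxa2, the gene of the second pharyngeal arch, was low but detected everywhere. It read -0.40, -0.99, -1.37 and -1.46 in unplucked and -1.74, -1.82, -0.65 and -0.86 in plucked HFSC of young, aged, control and cKO mice. Total epidermis (-2.59 and -2.02) and IFE (-1.86 and -2.19) lay below every HFSC array, though narrowly below plucked HFSC on slide 1 (1.33 ± 0.39, adjusted p = 0.156). Hoxa4 was the only member at least 2-fold lower in HFSC (-1.19 ± 0.43, adjusted p = 0.225). It fell short of 2-fold without aged HFSC (-0.56) or aged IFE (-0.87), and was -1.82 without young HFSC. Unplucked HFSC had -0.74, -1.42, -3.95 (not detected) and -2.10, and plucked HFSC 0.21, -0.39, -1.60 and -0.60. Total epidermis had -0.58 and 0.00 and IFE -0.18 and 0.41, so that plucked young HFSC lay between the IFE arrays. Hoxa5, Hoxa6, Hoxa7 and Hoxa13, all detected on both IFE arrays, differed by -0.29 to -0.21. Hoxa9 differed by 0.13, with 1.26 in the young and -1.01 in the aged pair.

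Of the second probes, those of Hoxa3, Hoxa9, Hoxa13 and Hoxd11 did not follow the first probe over the 12 arrays (r of 0.02, 0.06, -0.09 and -0.21). These 4 were detected on 1 to 4 arrays only, unlike the Hoxb3 pair, each on 12.

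Against total epidermis, which contains both compartments, of 28 HOX genes tested, 3 were higher in HFSC (2.02% of all genes) and none lower (1.87%). An unadjusted p under 0.05 was found for 9 HOX genes, all higher, and for 20.8% of all genes in either direction. Hoxc13 exceeded total epidermis by 4.09 ± 0.38 (at least 17.1-fold, adjusted p = 0.0234), Hoxc6 by 2.67 ± 0.32 (adjusted p = 0.0309) and Hoxd4 by 4.43 ± 0.60 (at least 10.9-fold, adjusted p = 0.0388). Hoxd8 gave 4.29 ± 0.73 (adjusted p = 0.0568). Here too Hoxc13 and Hoxd4 entered the test through the HFSC arrays alone, which set their direction. Genes from the marker lists of other cells differed here too. The fibroblast, dermal papilla and melanocyte genes named above passed in the same directions, and of 6 T cell genes tested 2 were lower in HFSC, Cd3e (-2.85 ± 0.27, adjusted p = 0.0239) and Cd3g (at least 17.5-fold, adjusted p = 0.0195). Cd3g entered the test through the total epidermis arrays alone, which set its direction. The summed log2 level of the T cell list was 1.24 and 1.37 in young and aged HFSC, 3.18 and 3.99 in total epidermis and 2.91 and 2.80 in IFE. All 6 Langerhans and myeloid genes tested had fitted differences below 0 (median -2.16), and none passed. Their part in the HOX differences was not tested. No gene of any kind passed without young total epidermis, aged total epidermis or young HFSC. Without young or aged total epidermis the adjusted p was 0.145 and 0.127 for Hoxc13, 0.155 and 0.177 for Hoxc6, and 0.161 and 0.123 for Hoxd4. For Hoxc6 it was 0.0543 without young HFSC, 0.0555 without aged HFSC, 0.0607 with no filter and 0.0547 in 1 fit over 12 arrays. For Hoxd4 it was 0.0624 with no filter and 0.459 over 12 arrays, and without either HFSC array neither Hoxc13 nor Hoxd4 was tested. In single pairs, 13 of 29 HOX genes were at least 2-fold higher in HFSC than in total epidermis and 2 lower in young mice (12.9% and 19.7% of all genes). In aged mice 12 of 28 were higher and 3 lower (16.0% and 13.9%). Total epidermis against IFE gave 0 calls for HOX genes and 0 for all 23961 genes in limma (0.0% higher, 0.0% lower), with 1 HOX gene and 977 genes at an unadjusted p under 0.05. In single pairs, 3 of 25 HOX genes were at least 2-fold higher in young total epidermis than in IFE (Hoxa9, Hoxb8, Hoxd9) and none lower (9.72% and 2.66% of all genes). In the aged pair 1 of 26 was higher (Hoxd8) and 1 lower, against 6.32% and 6.44%.

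Taking all 8 HFSC arrays, 5 of 30 HOX genes lay above both IFE arrays on every one of them, where 6.14% of all genes did: Hoxa2, Hoxb3, Hoxb7, Hoxc6 and Hoxc13. The same 5 lay above the 4 epidermal arrays, where 4.19% of all genes did. Hoxc4 alone lay below both IFE arrays (7.57% of all genes), and no HOX gene below the 4 epidermal arrays (4.81%). Without unplucked control and cKO HFSC (left out once their values were known), 9 of 30 HOX genes had the other 6 HFSC arrays above the 4 epidermal arrays, where 6.3% of all genes did. The genes added were Hoxb9, Hoxc8, Hoxd8 and Hoxd9. Leaving arrays out with HOX values in view favours such genes, so this count cannot be weighed against the share of all genes.

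Plucking starts a new hair cycle, and its effect was fitted over the 8 HFSC arrays with mouse type and plucking as terms (3 residual degrees of freedom, n = 4 pairs). None of 30 HOX genes passed, where 0.393% of 25428 genes were higher and 0.106% lower (limma). An unadjusted p under 0.05 was found for 4 HOX genes, 3 of them higher, and for 17.6% of all genes in either direction. Hoxa3 was lower after plucking in 4 of 4 pairs, by -1.07, -1.74, -1.48 and -1.38 in young, aged, control and cKO mice (-1.42 ± 0.24, adjusted p = 0.086). It was the only HOX gene with all 4 plucked arrays below all 4 unplucked ones, where 4.42% of all genes were. No HOX gene had all 4 above (6.28%). With normexp background (adjusted p = 0.0157) and in 1 fit over 12 arrays (0.0131) Hoxa3 passed. The overlapping antisense probe gave -1.50 ± 0.31 (adjusted p = 0.114). Hoxa4 went the other way in 4 of 4 pairs, by 0.94, 1.02, 2.35 and 1.5 (1.45 ± 0.33, adjusted p = 0.129). Its unplucked control array was not detected. Hoxa4 gave 1.15 without unplucked control HFSC, 1.44 without unplucked cKO HFSC and 0.98 within slide 1, and Hoxa3 gave -1.40, -1.43 and -1.41, with no HOX gene passing in these 3 fits (smallest adjusted p 0.222, 0.208 and 0.102). Hoxc13 differed by 0.45 ± 0.31 (adjusted p = 0.501). At the 2-fold line in single pairs, none of 29 HOX genes was higher after plucking and 7 lower in young mice (15.0% and 11% of all genes). In aged mice 10 of 31 were higher and 5 lower (15.7% and 16.8%). Control mice had 12 of 30 higher and 6 lower (21.1% and 20.2%), and cKO mice 10 of 27 higher and 5 lower (22.4% and 17.0%).

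The pairs of the 2 slides differed for several genes. Hoxd8 was 7.51 and 5.81 higher after plucking in control and cKO mice, but 0.38 and 0.22 in young and aged mice. Both unplucked slide 2 arrays were undetected, so that these are ratios of at least 89.2-fold and 14.3-fold. Hoxd9, likewise undetected on those arrays, was at least 23.9-fold higher after plucking in control and 1.12-fold in cKO mice, and differed by -0.20 and 2.53 on slide 1. Hoxb9 gave 2.68 and 3.97 against -0.52 and 0.52, Hoxb8 2.24 and 1.97 against -0.18 and 0.37. Hoxa6 gave 2.59 in control mice and at least 4.62-fold in cKO mice, where the unplucked array was undetected, against -0.80 and 1.0 on slide 1. Hoxd4 was undetected on both plucked slide 1 arrays, at least 9.96-fold and 8.86-fold below the unplucked ones in young and aged mice. In control mice it was undetected before plucking and at least 9.96-fold brighter after it, and both cKO arrays were undetected. In a fit with a term for plucking on slide 2, chosen after the data were seen, 0 HOX genes and 0 of 25428 genes passed (limma, 0.0%). Unadjusted p was under 0.05 for 1443 genes and for 7 HOX genes, all with a larger value on slide 2. Hoxd8 had the smallest p of them (6.36 ± 0.77, adjusted p = 0.737, a fitted value that takes undetected arrays at their measured level). Within slide 1 alone Hoxd8 gave 0.30 and within slide 2 alone 6.66, and no gene of any kind passed in either (n = 2 pairs each).

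**Figure D4:**
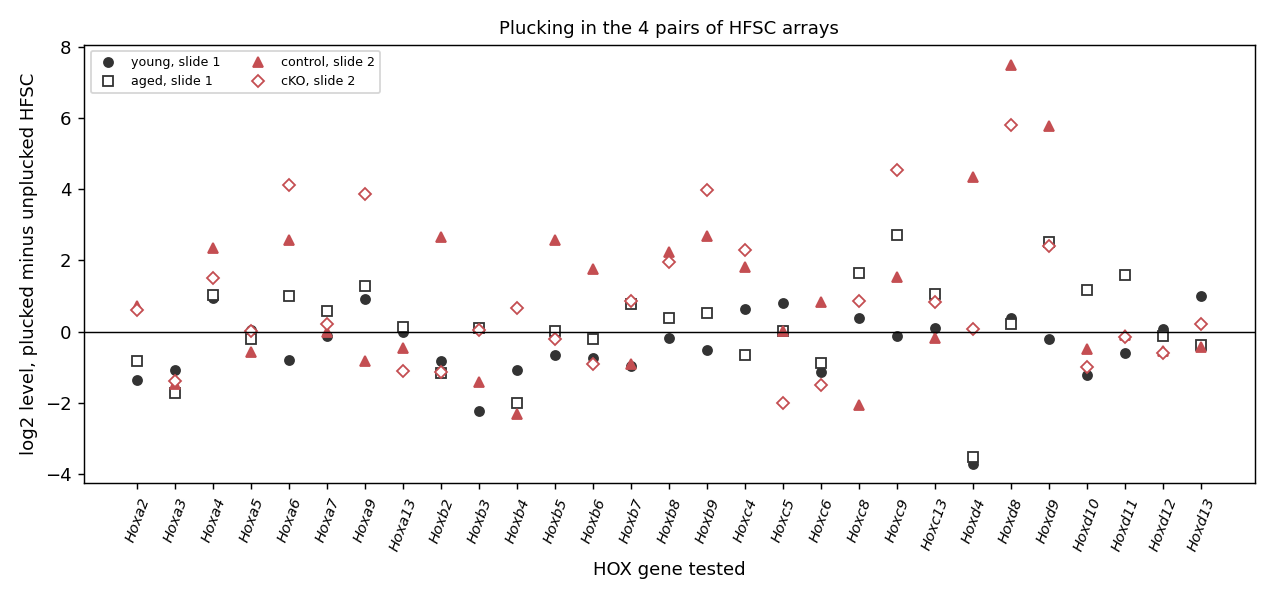
Log2 level in plucked minus unplucked HFSC (y axis) for 29 of the 30 HOX genes tested (x axis), 1 point for each pair of arrays: young and aged (black, slide 1), control and cKO (red, slide 2). All 4 points of Hoxa3 lie below 0, and Hoxd8 reaches 7.51 and 5.81 in the slide 2 pairs, over undetected unplucked arrays drawn at their measured level, against 0.38 and 0.22 on slide 1.

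For Hoxd8, Hoxd9, Hoxb9, Hoxb8 and Hoxa6 the low levels behind the slide difference sat on the unplucked slide 2 arrays. Hoxd4 was undetected there too, but also on both plucked slide 1 arrays (-4.87 and -4.11) and on plucked cKO HFSC (-4.86). Control against young HFSC without plucking, 1 array against 1, had 13 of 30 HOX genes at least 2-fold lower and 7 higher, where 18.9% and 21.5% of all genes were. After plucking it had 6 lower and 5 higher of 29 (12.4% and 10.3%). Hoxd4, Hoxd8 and Hoxd9 of cluster D, Hoxa6 and Hoxa4 of A, and Hoxb5, Hoxb8 and Hoxb9 of B were among the 13. Hoxa3 and Hoxa5 were among the 7 that were higher. Over the 39 HOX genes, the levels of young HFSC correlated with those of control HFSC at r = 0.74 and of cKO HFSC at 0.74, but with plucked control HFSC at 0.96. Over all genes these correlations were 0.92, 0.92 and 0.94. Differences in brightness between probes enter each r, and the 39 genes include the 7 detected on no array. Genes are not independent replicates, and these values describe single arrays.

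Age and the loss of Col17a1 were contrasts of the same 8-array fit (n = 2 pairs each). Aged against young HFSC gave 0 HOX genes and 0 of all genes in limma (0.0%), with 1 HOX gene (Hoxd13) and 1227 genes at an unadjusted p under 0.05. The smallest adjusted p of a HOX gene was 0.932. In single pairs without plucking, 8 of 29 HOX genes were at least 2-fold lower and 2 higher in aged HFSC, where 11.5% and 18.5% of all genes were. In the plucked pair none was lower and 6 of 30 were higher (10.1% and 9.9%), so that Hoxc9 and Hoxd9 stood lower in one pair and higher in the other. In IFE, aged against young, 3 of 24 HOX genes were at least 2-fold higher (Hoxa9, Hoxb9, Hoxd9) and none lower (8.57% and 3.55%). In total epidermis 2 of 26 were higher (Hoxb9, Hoxd8) and 1 lower (Hoxb8), against 5.2% and 6.93%.

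cKO against control HFSC gave 0 HOX genes and 0 of all genes (limma, 0.0%), with 4 HOX genes (Hoxa4, Hoxb2 and Hoxc5 higher, Hoxa5 lower) and 1646 genes at an unadjusted p under 0.05. The smallest adjusted p of a HOX gene was 0.714. Of single pairs, the unplucked one had 5 of 25 HOX genes at least 2-fold higher and 8 lower (17.7% and 20.9% of all genes). The plucked one had 6 of 29 higher and 3 lower (11.6% and 12.0%). Hoxc5 was at least 2-fold higher in both pairs, at 2.32 against -1.09 unplucked and 0.31 against -1.08 plucked (2.40 ± 0.71, adjusted p = 0.714). Without unplucked control HFSC it was 2.20 and without unplucked cKO HFSC 1.26, and in the plucked pair alone 1.39. In those fits 3 and 1 HOX genes had an unadjusted p under 0.05, and none passed (limma).

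The clusters also hold noncoding genes. Between the outermost HOX probes lay 38 other probes, of which 33 were detected, under 21 names, and 17 names were tested. Of these, 2 were higher in HFSC than in IFE and none lower, where 2.64% and 2.1% of all genes tested were. AI448005, whose probe lies in cluster D between those of Hoxd4 and Hoxd3 (mm9 chr2:74569698-74569757), was detected on all 8 HFSC arrays and on neither IFE array. Its levels were 2.59, 1.47, 0.43 and -0.08 in unplucked HFSC of young, aged, control and cKO mice and -1.18, 0.50, 1.00 and 0.73 in plucked HFSC. Total epidermis had -0.10 and -1.14, and IFE -4.02 and -4.58. So the gene was also detected in total epidermis, and it did not drop out on the unplucked slide 2 arrays as Hoxd4 and Hoxd8 did. HFSC exceeded IFE by 6.33 ± 0.30 (at least 57.4-fold, adjusted p = 0.00937). Hoxb5os, antisense to Hoxb5 by name, was detected on 7 of 8 HFSC arrays and on no epidermal array (3.69 ± 0.47, at least 5.53-fold, adjusted p = 0.0293). It entered the test through HFSC arrays alone, which set its direction. The 5 nearest named genes on each side of each cluster gave 40 genes, of which 30 were tested and none passed. By the shares of all genes just given, few calls would fall in a list of that length. Their median was 0.13, against 0.81 for the HOX genes tested and -0.09 over all genes.

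Of the related pathways, HOX cofactors of the TALE class (PBX, MEIS and PKNOX proteins, which bind DNA beside HOX proteins) had 9 genes tested, 1 higher in HFSC than in IFE and none lower, with a median of 0.30. Beside this list and those that follow, 2.64% of all genes tested were higher and 2.1% lower. Pknox2 was the one that passed (6.11 ± 0.60, at least 18.7-fold, adjusted p = 0.0169), while Meis2 stood at -2.80 (adjusted p = 0.118), Pbx3 at 2.27 (adjusted p = 0.0527) and Meis1 at 1.73 (adjusted p = 0.0922). Pknox2 entered the test through HFSC arrays alone, which set its direction. Of 26 chromatin regulators of the clusters (MLL and Polycomb proteins and their partners), none passed. Ezh2, the Polycomb methyltransferase, was at -1.31 (adjusted p = 0.0822) and Gmnn, geminin, at -1.74 (adjusted p = 0.213). Retinoic acid, a classical inducer of HOX genes, had 3 of 14 tested genes higher and 1 lower. Crabp1, a cellular retinoic acid binding protein, was higher by 5.38 ± 0.27 (adjusted p = 0.00937) and Cyp26b1, which degrades the acid, by 4.33 ± 0.63 (adjusted p = 0.0377). Aldh1a1, which makes the acid, was lower (-2.15 ± 0.35, adjusted p = 0.0487). Crabp1 was detected on 1 of 2 IFE arrays and Aldh1a1 on 1 of 2 HFSC arrays.

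Of 10 tested hair genes downstream of or beside Hoxc13, none was higher in HFSC and 1 was lower: Foxn1, a hair keratin regulator, at -3.23 ± 0.32 (adjusted p = 0.017). Krt33a, a hair keratin, was at -3.44 (adjusted p = 0.0527). Of 6 tested homeobox genes related to or near the clusters, Dlx2 was higher (3.18 ± 0.27, adjusted p = 0.0138), and Dlx3, known for its role in hair, stood at 2.58 (adjusted p = 0.116). Plucking, age and cKO gave no call in any of these 5 lists. After plucking 0.393% of all genes were higher and 0.106% lower, and with age or cKO 0.0% passed.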

How the data were processed

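Expression was measured on 12 one-colour (Cy3) Agilent arrays. Per the file headers, the authors' scanner files hold spot intensities from Feature Extraction 10.7.3.1 (protocol GE1_107_Sep09): background subtracted and detrended processed intensities, mean and local background intensities, and flags set by that software. The authors' deposited value file holds log2 values whose making is not given in the sources used here; set against the scanner values, every column matched per-array scaled log2 intensities centred by probe (r of at least 0.999884), and what the authors centred on stays unknown. Its column medians were 0.02, -0.14, -0.02 and 0.08 (young HFSC, plucked HFSC, total epidermis, IFE), -0.01, 0.02, 0.13 and -0.01 (the same in aged mice), -0.02 and -0.20 (control HFSC, unplucked and plucked) and 0.16 and -0.15 (cKO HFSC). Per the labels' protocols, nanogram amounts of RNA were amplified (Ovation Pico WTA) and labelled (SureTag), steps that can lose rare transcripts unevenly between samples.

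Controls and spots flagged as outliers (129 to 269 on an array) were dropped first, no spot was saturated, the 75th percentile was subtracted and spots of a probe were averaged. Of 55681 probes, 28026 matched a RefSeq symbol by accession, and the others kept the array name. HOX genes were taken by array name. Linear models were fitted by limma 3.58.1 under R 4.3.3 (moderated 2-sided tests, Benjamini-Hochberg adjusted over all genes tested), after a trial on simulated data; data.table (version 1.17.8), Python 3.11.15, pandas 2.3.3, numpy 2.4.6 and matplotlib 3.10.9 were used too. Every HOX gene is in the counts, the single values of 1 are not reported here, and those at least 2-fold apart between HFSC and IFE or past a test have their value on every array. The number of arrays, not counting, limits precision. Members, lists and rules were chosen with earlier results of these data known. Alternatives were normexp (offset 50), quantile scaling, the authors' values, other filters, means over probes, 1 fit over 12 arrays, each slide, and leaving out each array.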

Additional observations from a re-analysis of the deposited data

Results flagged for a closer look

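Hoxa2 differed between slides in its response to plucking by 1.75 on the log2 scale: plucked minus unplucked HFSC was -1.35 in young and -0.83 in aged mice on slide 1, and 0.72 in control and 0.60 in cKO mice on slide 2, so that both pairs of a slide moved one way and both of the other slide the opposite way. The interaction term gave 1.75 ± 0.54 (SE, limma, adjusted p = 0.818). Hoxa2, and Hoxa4 and Hoxb6 below, were picked because they differed between groups of pairs. Their opposite directions thus come with the choice, and the share of all genes that would be picked is not given here.

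Hoxa4 differed between compartments in the aged minus young difference by -1.22. It was 0.58 in total epidermis and 0.58 in IFE, and -0.68 and -0.60 in unplucked and plucked HFSC. This difference between compartments was not tested.

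Hoxb6 showed the same opposition at -0.73, with 0.07 in total epidermis and 0.10 in IFE against -0.92 and -0.37 in unplucked and plucked HFSC. This difference was not tested either, and the epidermal values are close to 0.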

How the results depend on the processing

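No paired analysis was possible because each group holds 1 array, so that replicate numbers pair nothing; the pairs in the fits are arrays of 1 age or mouse type. For HFSC against IFE, the call of 4 HOX genes became 2 in 1 fit over 12 arrays (Hoxc13 and Hoxa3) and 1 to 3 when 1 array was left out; all genes called went from 1134 to 605 with no filter on dim genes and to 301 to 852 with 1 array left out. For HFSC against total epidermis, 3 HOX genes became 5 with normexp, 5 with quantile scaling, 1 with no filter, 1 in the fit over 12 arrays and 0 to 4 with 1 array left out; all genes called (933) became 1419 with normexp, 327 with no filter and 0 to 852 with 1 array left out. Total epidermis against IFE (0 of all genes) gave 6 with normexp, 4 with quantile scaling, 5 with means over all probes and 56 in the fit over 12 arrays. For plucking, 0 HOX genes became 1 (Hoxa3) with normexp and 1 in the fit over 12 arrays; all genes called (127) became 1258 with normexp, 22 with no filter, 301 with detection on more arrays, 273 with means over all probes, 1418 in the fit over 12 arrays, 0 within slide 1, 0 within slide 2 and 0 with any 1 array left out. For cKO against control, 0 genes became 3 in the fit over 12 arrays. Hoxd4, at -0.71 after plucking, turned to 0.29 without young HFSC or young plucked HFSC and to 0.23 without aged HFSC or aged plucked HFSC, in a range from -2.39 (without control HFSC) with 1 array left out. Over 22 results of single HOX genes, 256 of 292 alternative fits kept direction and call, 24 lost the call, 8 gained it and 4 turned, all 4 being those of Hoxd4. Most of these results had not passed, and only a call could be lost. Against IFE the call was lost in 7 of 13 alternatives for Hoxc6, 3 of 13 for Hoxd8 and 2 of 10 for Hoxd4. For Hoxc13 it was lost in 0 of 10. Against total epidermis it was lost in 6 of 13 for Hoxc6, 4 of 10 for Hoxd4 and 2 of 10 for Hoxc13. Fits over fewer arrays have fewer degrees of freedom, and the cause of the other shifts was not tested. Differences of dim genes shrink with normexp: Hoxc13 against IFE was 1.96 there, Hoxd8 2.84 and Hoxd4 1.44.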

Other observations

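AI448005 and Hoxd4 have neighbouring probes in cluster D, and after plucking they lay at -1.18 and -4.87 (Hoxd4 not detected) in young HFSC against 2.59 and -1.16 before it. In aged mice they lay at 0.50 and -4.11 (not detected) against 1.47 and -0.58. In control and cKO mice AI448005 lay at 1.00 and 0.73 after plucking against 0.43 and -0.08. Haglr, an antisense noncoding gene of cluster D, was detected on all 12 arrays. Its plucked levels (-0.05, 0.19, -0.19 and 0.07 in young, aged, control and cKO mice) all lay below the unplucked ones (0.79, 0.98, 1.18 and 1.33), at -1.07 ± 0.25 (SE, n = 4 pairs, limma, adjusted p = 0.133). Of all genes, 4.42% had every plucked array below every unplucked one, and Haglr was picked from the 38 other probes inside the clusters.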
